A study of Mus musculus with 16 samples.

Results

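The 10 genes of MHC class I processing and the immunoproteasome were followed in RAW264.7 macrophages, namely Tap1, Tap2, Tapbp, Psmb8, Psmb9, Psmb10, Psme1, Psme2, B2m and Nlrc5. They were taken as a named list from the array's value table, with probe sets that name exactly 1 gene and, where a gene had several, the one with the highest mean over the 16 arrays. All 10 of 10 were measured, among 18820 genes in all. RAW264.7 is a macrophage-like line that was started from a BALB/c mouse tumour. The cells had 24 h in 1 of 4 conditions, with 4 arrays each: lipopolysaccharide (LPS, a bacterial cell wall component, 1 µg/ml) together with docosahexaenoyl serotonin (DHA5HT, an n-3 fatty acid joined to serotonin, 1 µM), LPS alone at the same dose, DHA5HT alone at the same dose, or control. Control and LPS cells received a vehicle, which the control labels give as ethanol at 0.1% by volume, and the labels name no solvent for the groups with DHA5HT. All groups share the same line and medium, and the labels name no genetic change.

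Cells show peptides of their own proteins on MHC class I molecules, which consist of a heavy chain and beta-2-microglobulin. The proteasome cuts proteins into peptides, the TAP transporter carries the peptides into the endoplasmic reticulum, and tapasin bridges the transporter and the empty class I molecule while a peptide is loaded. Interferons and inflammatory signals raise a variant of the proteasome, the immunoproteasome, in which the catalytic subunits are exchanged, and NLRC5 is the transcription activator of class I genes. In macrophages the pathway serves the display of antigens to cytotoxic T cells.

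All 10 of 10 macrophage markers listed lay above 3.47, the median level of markers of T, B, NK, dendritic, epithelial and fibroblast cells, in every group. In each group 7 or 8 of the 17 measured markers of those other cells also lay above it, and the median gene stood at 5.24. The lowest mean of a macrophage marker was 6.93 (Adgre1 in control arrays). The mean level of the 17 measured markers of other cell types was 3.52 to 3.63 in LPS+DHA5HT arrays, 3.55 to 3.59 in LPS arrays, 3.49 to 3.59 in DHA5HT arrays and 3.49 to 3.56 in control arrays. Values are log2 intensities. Errors are SD over 4 arrays unless an SE is named. LPS+DHA5HT array 1 has a title that names both agents and a treatment label that names DHA5HT alone, and was grouped by its title. Its value on the first principal component, which held 70.6% of the variance, was 22.7, on the side of the LPS arrays (31.4 to 36.2). The DHA5HT arrays stood at −33.6 to −31.0. On the second principal component, which held 4.72% of the variance, LPS+DHA5HT array 4 stood 22.4 from the centre, against 10.02 for the next farthest array. Array medians lay between 4.58 and 4.67. No label states that replicate arrays are separate cultures, so p values measure the spread between these arrays, which may be technical.

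In the RefSeq gene table Tap1, Tap2, Tapbp, Psmb8 and Psmb9 lie on chromosome 17, Psme1 and Psme2 on chromosome 14, Psmb10 and Nlrc5 on chromosome 8 and B2m on chromosome 2. Of the 10 genes, 8 had an entry in the RefSeq promoter table (GRCm38.p6, C57BL/6J), which holds 250 bases before and 50 after each start; Tap2 and Nlrc5 are named only. The BALB/c-derived line may differ from these bases. Tap1 and Psmb9 are transcribed in opposite directions from starts 226 bases apart on chromosome 17, and their windows share 275 bases. The Psmb9 window is chr17:34187281-34187580 on the minus strand. The Tap1, Psmb8, Psme1 and B2m windows are printed because they hold, among them, a match to every motif searched. They stand at chr17:34187306-34187605, chr17:34197945-34198244, chr14:55578244-55578543 and chr2:122147437-122147736, all on the plus strand and written 5′ to 3′, with capitals for the motif matches on either strand.
Tap1: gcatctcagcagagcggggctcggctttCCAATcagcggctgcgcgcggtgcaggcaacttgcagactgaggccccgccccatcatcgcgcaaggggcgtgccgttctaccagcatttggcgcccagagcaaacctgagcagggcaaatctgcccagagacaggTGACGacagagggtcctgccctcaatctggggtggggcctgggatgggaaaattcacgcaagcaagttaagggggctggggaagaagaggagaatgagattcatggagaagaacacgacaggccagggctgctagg
Psmb8: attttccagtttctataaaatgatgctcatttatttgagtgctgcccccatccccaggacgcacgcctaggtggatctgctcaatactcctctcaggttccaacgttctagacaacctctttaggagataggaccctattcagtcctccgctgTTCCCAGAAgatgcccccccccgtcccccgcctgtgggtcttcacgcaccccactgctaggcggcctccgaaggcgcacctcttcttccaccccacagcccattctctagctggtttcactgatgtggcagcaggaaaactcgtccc
Psme1: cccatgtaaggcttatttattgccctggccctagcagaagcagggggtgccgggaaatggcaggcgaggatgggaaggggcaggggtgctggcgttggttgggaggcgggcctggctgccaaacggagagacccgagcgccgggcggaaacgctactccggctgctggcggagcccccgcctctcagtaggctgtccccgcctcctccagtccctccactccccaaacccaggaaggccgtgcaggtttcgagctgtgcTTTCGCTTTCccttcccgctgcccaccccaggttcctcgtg
B2m: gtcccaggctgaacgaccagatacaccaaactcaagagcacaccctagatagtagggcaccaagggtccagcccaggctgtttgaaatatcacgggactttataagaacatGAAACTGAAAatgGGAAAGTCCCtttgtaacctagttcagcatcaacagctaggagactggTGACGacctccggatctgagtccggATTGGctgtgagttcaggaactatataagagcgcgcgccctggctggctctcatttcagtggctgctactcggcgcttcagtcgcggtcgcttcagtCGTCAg

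The 5 motifs were searched on both strands. The interferon response motif, GAAA and again GAAA with any 2 bases between, was in the Psme1 and B2m windows and in 3.44% of the 32851 promoters of the table. The STAT motif TTCNNNGAA was in the Psmb8 window and in 8.3% of promoters. The NF-kB motif, GGG, any 2 bases, TT, any base and CC, was in the B2m window and in 4.79% of promoters. TGACG, a core of the X2 box that class I and class II promoters carry, was in 5 of the 9 windows of these genes (Tap1, Psmb9, B2m and both windows of Psme2, which overlap each other) and in 20.8% of promoters. CCAAT, the core of the Y box, was in 4 of the 9 (Tap1, Psmb9, Tapbp and B2m) and in 37.4% of promoters. The Tap1 and Psmb9 matches are the same bases read from both sides, and the B2m matches do not overlap each other. In the Psmb10 window none of the 5 motifs was found. A match describes letters and does not show a bound site.

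LPS against control asks how the pathway responded to the bacterial stimulus. Tap1, Nlrc5, Psme2 and Tapbp had the largest differences of the 10 genes. Tap1, which encodes a chain of the peptide transporter, was 1.93-fold higher, Nlrc5 1.72-fold, the proteasome activator subunit gene Psme2 1.57-fold and Tapbp, which encodes tapasin, 1.49-fold. The catalytic subunit genes Psmb8 and Psmb9 rose by 1.22-fold each, while Psmb10 and B2m did not pass. In all 8 of the 10 genes rose and 0 fell (limma, adjusted p under 0.05 over 18820 genes), where 28.4% of all genes passed and 12.6% rose. For those 8 genes every LPS array lay above every control array, as for 13.7% of all genes. Over all genes 2376 rose and 2970 fell, and after centring each array on its median 3043 rose and 2468 fell. The median difference of the 10 genes was 0.40, against 0.00 for all genes. The mean level of the 10 macrophage markers was 11.25 to 11.39 in LPS arrays and 10.78 to 10.92 in control arrays, with 4 markers higher and 3 lower and a median difference of −0.11. Adgre1, which encodes a macrophage surface receptor, had the difference of 3.94 that carried the mean, and the part of these markers in the differences of the 10 genes was not tested. In bulk RNA, fewer cells of a type and less RNA per cell cannot be told apart.

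**Figure D1:**
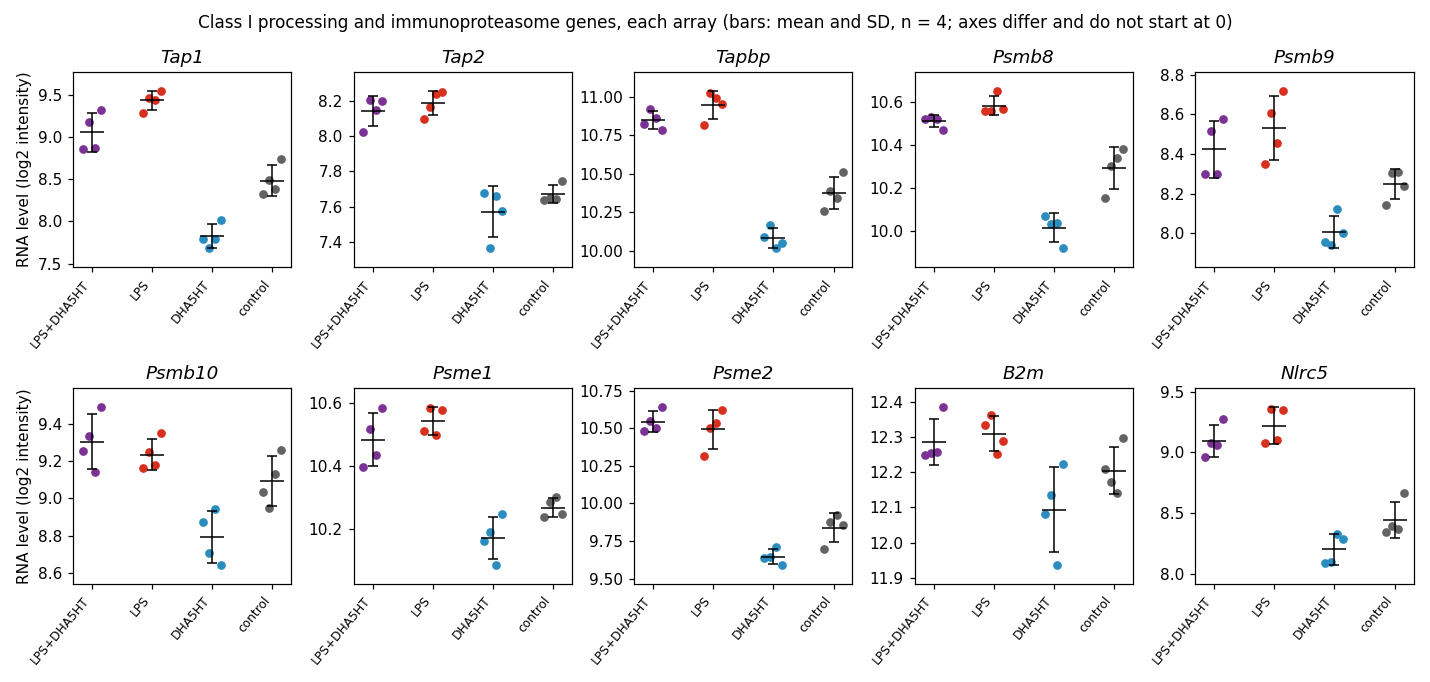
RNA level (log2 intensity, vertical axes that differ between panels and do not start at 0) of each gene in every array of the LPS+DHA5HT, LPS, DHA5HT and control groups, with bars for the mean and SD (n = 4). For Tap1 the 4 LPS arrays lie between 9.29 and 9.55 and the 4 control arrays between 8.33 and 8.74, and for all 10 genes the DHA5HT group has the lowest mean.

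Tap1 lay at 8.86, 9.18, 8.87 and 9.32 in LPS+DHA5HT arrays 1 to 4, at 9.29, 9.47, 9.44 and 9.55 in LPS arrays, at 7.79, 7.68, 7.80 and 8.02 in DHA5HT arrays and at 8.33, 8.49, 8.38 and 8.74 in control arrays. Every LPS array was above every control array, and every DHA5HT array was below every control array. LPS minus control was 0.95 (SE 0.11, limma adjusted p = 2.8e-06). Tap2, which encodes the other chain of the transporter, averaged 8.14 ± 0.08 in LPS+DHA5HT arrays, 8.19 ± 0.07 in LPS arrays, 7.57 ± 0.15 in DHA5HT arrays and 7.67 ± 0.05 in control arrays (SD, n = 4 each). Its DHA5HT and control arrays overlapped, and LPS minus control was 0.52 (SE 0.07, limma adjusted p = 1.78e-05). Tapbp lay at 10.82, 10.92, 10.86 and 10.78 in LPS+DHA5HT arrays, at 10.81, 11.02, 10.99 and 10.95 in LPS arrays, at 10.09, 10.17, 10.02 and 10.05 in DHA5HT arrays and at 10.26, 10.39, 10.34 and 10.51 in control arrays. The groups with LPS did not overlap those without it, and LPS minus control was 0.57 (SE 0.07, limma adjusted p = 2.49e-06).

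Smaller differences were measured for the catalytic subunits of the immunoproteasome. Psmb8, the subunit that takes the place of Psmb5, lay at 10.52, 10.53, 10.52 and 10.47 in LPS+DHA5HT arrays, at 10.56, 10.56, 10.65 and 10.57 in LPS arrays, at 10.07, 10.03, 10.04 and 9.92 in DHA5HT arrays and at 10.15, 10.30, 10.34 and 10.38 in control arrays. The 4 groups did not overlap one another. LPS minus control was 0.29 for Psmb8 (SE 0.06, limma adjusted p = 0.000751). Psmb9, which replaces Psmb6, averaged 8.42 ± 0.14 in LPS+DHA5HT arrays, 8.53 ± 0.16 in LPS arrays, 8.01 ± 0.08 in DHA5HT arrays and 8.25 ± 0.08 in control arrays, and LPS minus control was 0.28 (SE 0.08, limma adjusted p = 0.0165). The Psmb9 call did not hold when control array 1, LPS array 2 or LPS array 4 was left out (differences of 0.25, 0.26 and 0.22, limma adjusted p of 0.057, 0.0507 and 0.0687). Psmb10, which replaces Psmb7, lay at 9.26, 9.33, 9.14 and 9.49 in LPS+DHA5HT arrays, at 9.16, 9.25, 9.18 and 9.35 in LPS arrays, at 8.88, 8.71, 8.94 and 8.65 in DHA5HT arrays and at 9.04, 8.95, 9.13 and 9.26 in control arrays. Its LPS and control arrays overlapped, and the difference of 0.14 had a 95% interval from −0.05 to 0.33 (limma adjusted p = 0.284).

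The proteins of Psme1 and Psme2 form the ring called PA28, which caps the proteasome core. Psme2 lay at 10.48, 10.55, 10.50 and 10.64 in LPS+DHA5HT arrays, at 10.31, 10.50, 10.54 and 10.62 in LPS arrays, at 9.64, 9.65, 9.71 and 9.59 in DHA5HT arrays and at 9.70, 9.88, 9.92 and 9.86 in control arrays. LPS minus control was 0.66 (SE 0.07, limma adjusted p = 9.76e-07), the smallest p of the 10 genes in this comparison. A further probe set that names both Psme2 and Psme2b, and so cannot be assigned to 1 of them, had a smaller difference of 0.20. Psme1 averaged 10.49 ± 0.09 in LPS+DHA5HT arrays, 10.54 ± 0.05 in LPS arrays, 10.17 ± 0.07 in DHA5HT arrays and 10.27 ± 0.03 in control arrays, and LPS minus control was 0.27 (SE 0.06, limma adjusted p = 0.000971). B2m, the light chain of class I molecules, averaged 12.29 ± 0.07 in LPS+DHA5HT arrays, 12.31 ± 0.05 in LPS arrays, 12.09 ± 0.12 in DHA5HT arrays and 12.20 ± 0.07 in control arrays. Its LPS and control arrays overlapped, and LPS minus control was 0.11 with a 95% interval from −0.03 to 0.24 (limma adjusted p = 0.269).

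Nlrc5 allowed a check within the gene, because 19 probe sets name it alone. The one used lay at 8.96, 9.07, 9.06 and 9.28 in LPS+DHA5HT arrays, at 9.07, 9.36, 9.10 and 9.35 in LPS arrays, at 8.09, 8.10, 8.33 and 8.29 in DHA5HT arrays and at 8.34, 8.39, 8.36 and 8.66 in control arrays. LPS minus control was 0.78 (SE 0.09, limma adjusted p = 4.32e-06). Over the 19 probe sets that difference was positive in 19, between 0.31 and 0.94 with a median of 0.72, and in 18 of them the LPS and control arrays did not overlap. DHA5HT minus control was negative in all 19, between −0.37 and −0.05. LPS+DHA5HT minus LPS ran from −0.19 to 0.05 and was positive in 2 of the 19. The probe sets measure 1 transcript population in the same arrays and are not replicates, so no test was made over them.

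**Figure D2:**
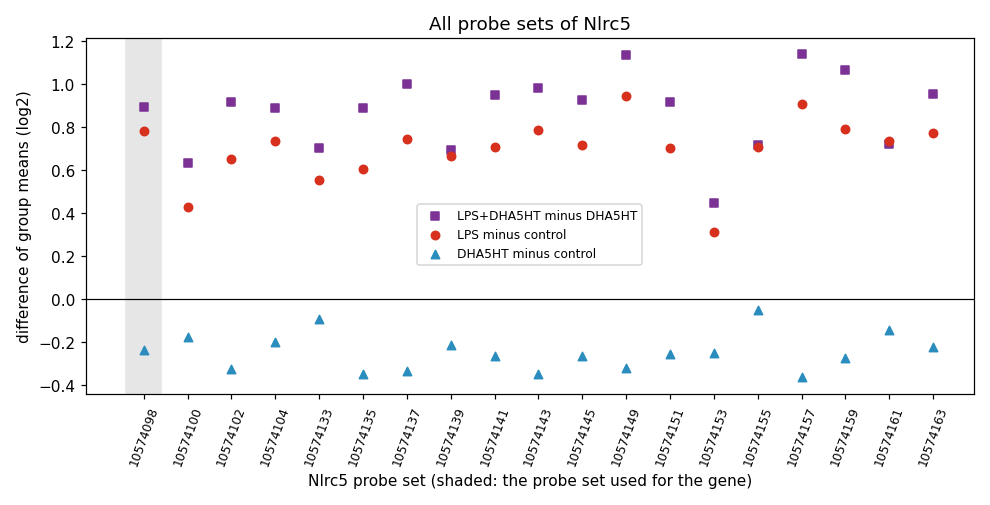
Difference of group means (log2, vertical axis) at each of the 19 Nlrc5 probe sets (horizontal axis, the used one shaded) for LPS+DHA5HT minus DHA5HT (squares), LPS minus control (circles) and DHA5HT minus control (triangles). All circles lie above 0, between 0.31 and 0.94, and all triangles below it, between −0.37 and −0.05.

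LPS+DHA5HT against DHA5HT gives the LPS response with the compound present, in arrays that the comparison above did not use. All 10 of the 10 genes rose and 0 fell (limma), where 28.1% of all genes passed and 12.4% rose (2333, with 2952 lower, and 2800 with 2478 lower after centring), and for each gene the 4 LPS+DHA5HT arrays lay above the 4 DHA5HT arrays (12.8% of all genes did so). Tap1 was 2.35-fold higher (1.23, SE 0.11, adjusted p = 1.39e-07), Psme2 and Nlrc5 1.86-fold each and Tapbp 1.70-fold. Psmb10 rose by 0.51 (SE 0.09, adjusted p = 0.000196) and B2m by 0.19 (SE 0.06, adjusted p = 0.0309). The B2m call was lost without DHA5HT array 1 or 3 or LPS+DHA5HT array 4 (0.19, 0.14 and 0.16, limma adjusted p of 0.065, 0.119 and 0.0971), with array weights (adjusted p = 0.0534) and in the compared arrays alone (adjusted p = 0.0839). Without LPS+DHA5HT array 1, the one with unlike labels, all 10 genes kept their calls.

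**Figure D3:**
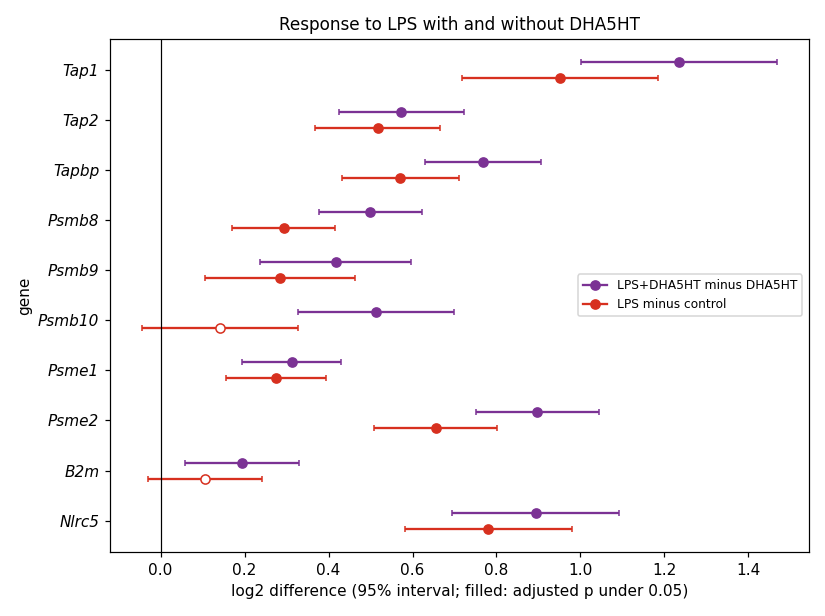
Log2 difference (horizontal axis) with its 95% interval for each of the 10 genes (vertical axis), for LPS+DHA5HT minus DHA5HT and for LPS minus control, filled where the adjusted p is under 0.05. Psmb10 (0.14) and B2m (0.11) are the open points, both in LPS minus control, and Tap1 has the largest difference in each comparison (1.23 and 0.95).

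LPS+DHA5HT against LPS, the comparison in the series' design text, asks what the compound did in stimulated cells. Tap1 had the largest difference there. Of the 10 genes 0 passed in limma, where 1.79% of all genes passed (0.972% lower), with 154 higher and 183 lower, or 110 and 216 after centring. An unadjusted p under 0.05 was reached by 1 of the 10, Tap1, and by 13.7% of all genes. Tap1 was lower by 0.38 on the log2 scale (−0.38, SE 0.11, adjusted p = 0.0972), with means of 9.06 ± 0.23 in LPS+DHA5HT arrays and 9.44 ± 0.11 in LPS arrays, and LPS+DHA5HT array 4 lay above LPS array 1. With the array number as a block, which uses the pairing that the main fit leaves out, Tap1 passed (SE 0.07, limma adjusted p = 0.0115). It was the only one of the 10 that did. Without LPS+DHA5HT array 1 its difference was −0.31 (adjusted p = 0.234), and without LPS+DHA5HT array 4 it was −0.47 (adjusted p = 0.0571). For the other 9 genes the 95% intervals of the difference lay between −0.33 (Nlrc5) and 0.26 (Psmb10). The 4 LPS+DHA5HT arrays lay below the 4 LPS arrays for 1 of the 10 genes, Psmb8 (3.91% of all genes), and above them for 0 (3.97% of all genes). The Psmb8 difference was −0.07 (95% interval −0.20 to 0.05, limma adjusted p = 0.646). Psmb10 and Psme2 had their highest mean in LPS+DHA5HT arrays, at differences of 0.07 and 0.05 that did not pass, and the other 8 genes had theirs in LPS arrays. The probe set that names both Psme2 and Psme2b had a difference of −0.11 here. Taken from the control mean, the LPS+DHA5HT mean stood at 60.0% of the LPS mean's distance for Tap1, 61.4% for Psmb9, 75.2% for Psmb8 and 78.5% for B2m. It stood at 78.7% for Psme1, 82.9% for Tapbp, 83.7% for Nlrc5, 91.5% for Tap2, 107.7% for Psme2 and 149.8% for Psmb10. LPS minus control did not pass for B2m or Psmb10. Taken from the DHA5HT mean instead, the rise exceeded LPS minus control for all 10 genes (1.23 against 0.95 for Tap1), with no interaction past the threshold.

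DHA5HT without LPS is the comparison in which the compound was set against resting cells. Tap1 and Psmb8 were lower. Tap1 fell to a mean of 7.82 ± 0.14 in DHA5HT arrays, against 8.49 ± 0.18 in control arrays (−0.66, SE 0.11, 1.58-fold lower, limma adjusted p = 0.0051), and Psmb8 fell to 10.01 ± 0.07 in DHA5HT arrays, against 10.29 ± 0.10 in control arrays (−0.28, SE 0.06, 1.21-fold lower, limma adjusted p = 0.0323). In all 0 of the 10 genes rose and 2 fell, where 0.6% of all genes passed and 0.478% fell. The Tap1 call was kept in all 8 fits that left out 1 array (−0.73 to −0.58, adjusted p 0.00358 to 0.0259). The Psmb8 call was kept only without control array 1 and was lost without any 1 of control arrays 2, 3 and 4 and DHA5HT arrays 1, 2, 3 and 4 (−0.30 to −0.25, adjusted p 0.0563 to 0.152), as it was in a fit of the DHA5HT and control arrays alone (adjusted p = 0.18). Tapbp stood next to the threshold at −0.29 (SE 0.07, adjusted p = 0.0536). It passed with the array number as a block (adjusted p = 0.0336), with an intensity trend, among the brighter genes, with array weights and without control array 1.

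All 10 differences of DHA5HT minus control were negative, between −0.66 and −0.10, with a median of −0.24, against 0.01 for all genes, of which 53.9% were positive. An unadjusted p under 0.05 in limma was reached by 7 of the 10, and by 9.85% of all genes. Psmb10 (−0.30, adjusted p = 0.199), Psmb9 (−0.24, adjusted p = 0.317) and Nlrc5 (−0.24, adjusted p = 0.396) did not pass in limma. For 6 of the 10 genes (Tap1, Tapbp, Psmb8, Psmb9, Psmb10 and Nlrc5) the 4 DHA5HT arrays lay below the 4 control arrays, which 2.85% of all genes did, and for 0 they lay above (3.03% of all genes). For Tap2, Psme1, Psme2 and B2m they overlapped, and the 95% interval for Tap2 was −0.25 to 0.05.

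**Figure D4:**
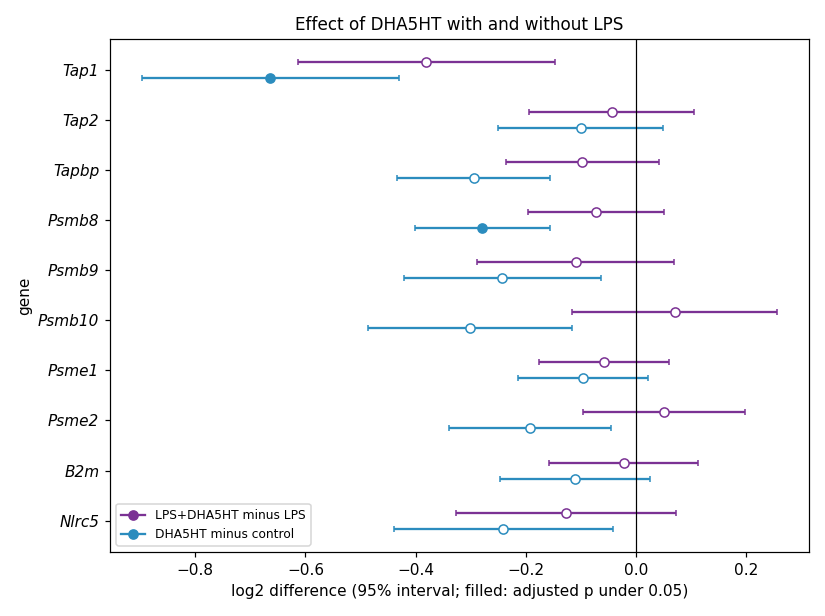
Log2 difference (horizontal axis) with its 95% interval for each of the 10 genes (vertical axis), for LPS+DHA5HT minus LPS and for DHA5HT minus control, filled where the adjusted p is under 0.05. Tap1 (−0.66) and Psmb8 (−0.28) in DHA5HT minus control are the filled points, and none is filled in LPS+DHA5HT minus LPS.

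Whether the DHA5HT effect differed between LPS-treated and resting cells was tested as an interaction. Of the 10 genes 0 passed in limma, where 0.329% of all genes passed. An unadjusted p under 0.05 was reached by 4 of the 10, and by 7.65% of all genes. The estimates were positive for all 10, between 0.04 and 0.37, and positive for 48.5% of all genes. The largest was that of Psmb10 (0.37, 95% interval 0.11 to 0.63, adjusted p = 0.407), followed by Tap1 (0.28, 95% interval −0.05 to 0.61, adjusted p = 0.718). No difference between the effects was shown for any of the 10 genes.

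Related genes of the proteasome were set beside these. The constitutive catalytic subunits, which the immunoproteasome subunits replace, did not fall with LPS. Psmb5 rose by 0.34 (SE 0.06, limma adjusted p = 0.000247) and Psmb7 by 0.19 (adjusted p = 0.00671), and Psmb6 had a difference of 0.03 (adjusted p = 0.863). Of 15 measured genes of the other 20S core subunits and assembly factors 5 rose and 0 fell with LPS, among them the core subunit genes Psma6 (0.82, adjusted p = 4.28e-09), Psma5 (0.34), Psmb3 (0.35) and Psma7 (0.23). Of 20 genes of the 19S cap and other activators 6 rose and 0 fell, such as Psmd3 (0.49), Psmd11 (0.42), Psmc2 (0.28) and Psmd14 (0.25). Over all genes 12.6% rose and 15.8% fell with LPS. In LPS+DHA5HT against LPS 0 genes of each of these 3 lists passed in limma, with 1, 2 and 2 at an unadjusted p under 0.05, and in DHA5HT against control 0 passed, with 1, 1 and 0. Over all genes 1.79% passed in LPS+DHA5HT against LPS, with 13.7% at an unadjusted p under 0.05, and 0.6% passed in DHA5HT against control. Psma5 passed in LPS+DHA5HT against LPS with an intensity trend (0.26, adjusted p = 0.0303) and among the brighter genes (adjusted p = 0.0312). Their median differences in DHA5HT against control were 0.11, 0.04 and −0.00197 for the 3 lists, against −0.24 for the 10 genes. The medians of the loading chaperones and peptidases (−0.13, 9 of 11 negative, 5 at an unadjusted p under 0.05) and of the heavy chains (−0.08, 10 of 13 negative, 5 at an unadjusted p under 0.05) were also below 0 in that comparison. Over all genes 9.85% reached an unadjusted p under 0.05 there, and 53.9% had a positive difference.

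Heavy chains and loading partners did not move as 1 group. H2-K1, a classical heavy chain, had an LPS minus control of 0.04 (SE 0.06, adjusted p = 0.68), and H2-D1 has no value here because its probe set names several genes. Class I heavy chains are polymorphic and closely related, and whether probes bind BALB/c alleles or several relatives was not tested. Of 13 measured heavy chain and class I-like genes 4 rose and 1 fell with LPS, where 12.6% of all genes rose and 15.8% fell. The non-classical chains H2-T23 and H2-T10 rose by 0.70 (adjusted p = 0.00131) and 0.32 (adjusted p = 0.0227), H2-M2 by 0.44 between means of 3.58 in LPS arrays and 3.14 in control arrays, near the 3.47 of absent markers, and Cd1d1, which presents lipids, fell by 0.55. H2-T24 rose by 0.61 (adjusted p = 0.0287), a call that did not hold when control array 1, 2 or 3 or LPS array 4 was left out (0.50 to 0.57, adjusted p 0.0695 to 0.0993). Leaving out control array 1 or 3, or LPS array 2 or 4, ended the H2-T10 call (0.27 to 0.32, adjusted p 0.0504 to 0.0781). Of 11 chaperone and peptidase genes 1, the tapasin-related Tapbpl, rose in LPS against control (0.42, adjusted p = 0.000218) and 0 fell. In LPS+DHA5HT against DHA5HT 5 of these 11 rose and 0 fell, and of the 13 heavy chain genes 6 rose and 1 fell. Over all genes 12.4% rose and 15.7% fell in that comparison. In LPS against control 6 of the 11 chaperone and peptidase differences were positive and 5 negative, with a median of 0.05. Among the negative ones were the endoplasmic reticulum chaperones Calr, Canx and Pdia3 (−0.07 each) and the trimming peptidase Erap1 (−0.15), none of which passed.

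Cd1d1 was also the 1 heavy chain gene of 13 that passed in LPS+DHA5HT against LPS, where 1.79% of all genes passed. It rose there by 0.78 (SE 0.16, limma adjusted p = 0.0208). Its arrays lay at 4.89, 5.17, 4.74 and 5.86 in LPS+DHA5HT arrays and at 4.41, 4.49, 4.33 and 4.30 in LPS arrays, with LPS+DHA5HT array 4 the highest. The call was lost without LPS array 3 or 4 (0.76 and 0.75, adjusted p of 0.052 and 0.0624) and in a fit of those arrays alone (adjusted p = 0.133). In DHA5HT against control Cd1d1 had a difference of 0.71 (adjusted p = 0.0615), which passed with an intensity trend (adjusted p = 0.0334), with array weights (adjusted p = 0.0182) and in a fit of those arrays alone (adjusted p = 0.000541). In the class II list 1 of 10 genes passed in LPS+DHA5HT against LPS, H2-Oa, which encodes a chain of the DO peptide-loading modulator (−0.45, adjusted p = 0.0278), and it too lost its call without LPS+DHA5HT array 1 or 4 or LPS array 2 or 4 (−0.45 to −0.41, adjusted p 0.066 to 0.091) and in a fit of the compared arrays alone (adjusted p = 0.0558).

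**Figure D5:**
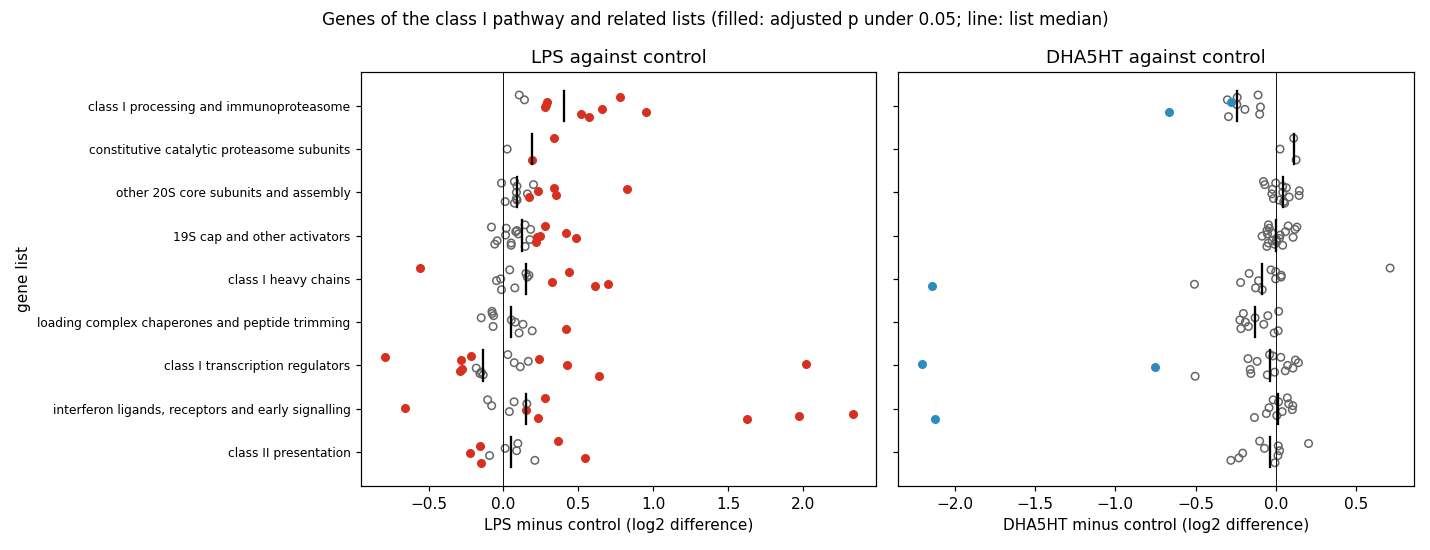
Log2 difference of each gene (points, filled where the adjusted p is under 0.05) in 9 gene lists (vertical axis, black line for the list median), for LPS minus control on the left and DHA5HT minus control on the right. The 10 class I processing and immunoproteasome genes have medians of 0.40 and −0.24, and the lowest points on the right are Irf7, H2-T24 and Usp18, between −2.21 and −2.13.

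Regulators upstream of the pathway moved in both directions with LPS. Of 17 measured transcription regulators of class I genes 4 rose and 5 fell, where 12.6% of all genes rose and 15.8% fell. Irf7, an interferon regulatory factor, rose by 2.02 (adjusted p = 5.57e-08), Stat2, a subunit of the interferon-activated ISGF3 factor, by 0.64, Irf8 by 0.43 and Irf1 by 0.24 (adjusted p = 0.0308), while Ezh2, a histone methyltransferase, fell by 0.79 and Nfyc, a CCAAT-binding subunit, by 0.29. The others that fell were Irf2 (−0.29), Nfyb (−0.28) and Creb1 (−0.22). Leaving out control array 1, 2 or 4, or LPS array 2 or 4, ended the Irf1 call (0.20 to 0.25, adjusted p 0.0514 to 0.106), as did averaging its probe sets (0.09, adjusted p = 0.459). Of 12 genes of interferon ligands, receptors and early signalling 6 rose and 1 fell, with Jak2, a kinase of cytokine receptors, up by 2.33, its inhibitor Socs1 up by 1.98, the interferon-response brake Usp18 up by 1.62 and the interferon-gamma receptor chain Ifngr1 down (−0.66). Ciita, the class II counterpart of Nlrc5, averaged 3.72 in LPS+DHA5HT arrays, 3.79 in LPS arrays, 3.90 in DHA5HT arrays and 3.69 in control arrays, close to the level of absent markers, and passed in no comparison. Of 10 class II genes 2 rose and 3 fell with LPS, among them the invariant chain gene Cd74 (0.36, adjusted p = 0.000343) and H2-Oa (0.55), which rose, and H2-DMa (−0.23), which fell and lost its call after centring (adjusted p = 0.0799), after quantile normalization (adjusted p = 0.1) and when LPS array 1 or 4, or control array 2 or 3, was left out (−0.21 to −0.19, adjusted p 0.0562 to 0.0743). Ifi30, a lysosomal thiol reductase (−0.15, adjusted p = 0.0317), and Ctss, a lysosomal protease (−0.16, adjusted p = 0.0417), were the others that fell, and the Ifi30 call was lost after centring (adjusted p = 0.153), in the compared arrays alone (adjusted p = 0.0652) and when control array 3 or 4 or LPS array 2, 3 or 4 was left out (−0.15 to −0.14, adjusted p 0.0524 to 0.0828).

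In these lists of related genes 4 genes passed in DHA5HT against control, and all 4 fell. They were 1 of 13 heavy chain genes, 2 of 17 transcription regulators and 1 of 12 interferon signalling genes. Over all genes 0.6% passed, with 90 lower and 23 higher. Of the 4 genes H2-T24 and Irf9 are named because their values were seen. Irf7 lay at 6.43, 6.48, 6.74 and 7.16 in DHA5HT arrays and at 8.61, 8.95, 8.70 and 9.37 in control arrays (−2.21, SE 0.17, limma adjusted p = 2.02e-06). H2-T24, a non-classical heavy chain, averaged 5.07 ± 0.42 in DHA5HT arrays and 7.21 ± 0.31 in control arrays (SD, n = 4 each), without overlap (−2.14, SE 0.20, adjusted p = 9.28e-06). Usp18 (−2.13, adjusted p = 5.68e-05) and Irf9, another ISGF3 subunit (−0.75, adjusted p = 0.00017), were the others. In LPS+DHA5HT against LPS the same 4 genes had differences of −0.18, −0.21, −0.37 and −0.12 in that order, none past the threshold. H2-T23 had a difference of −0.51 in DHA5HT against control (adjusted p = 0.199), which passed with the array number as a block (adjusted p = 0.0151). The levels of Ifnb1, Ifna4 and Ifng had group means between 2.92 and 3.43, at or below that of absent markers.

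Outside the lists, the genes most like the mean of the 10 were found by the root mean square distance of their profiles over the 16 arrays, each profile taken from its own control mean. The nearest were Naa25 (0.0688), Samhd1 (0.0748), Shisa5 (0.0849), Bcat2 (0.0859), Hax1 (0.0905), Tmem39a (0.0936), Agrn (0.0959) and Cox18 (0.0962). Naa25 had an LPS minus control of 0.51 and a DHA5HT minus control of −0.26, and Samhd1 had 0.41 and −0.25. The 10 genes themselves stood at distances from 0.105 (Tapbp) to 0.349 (Tap1) from their mean, so the mean profile is not that of any 1 of them. The nearest genes were picked by their small distance and the 10 were not, so setting these distances side by side is not a test. The distance is a description of likeness in these arrays.

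Single arrays were not evenly placed. The mean of the 10 genes, taken from the control mean, was 0.30, 0.42, 0.32 and 0.48 in LPS+DHA5HT arrays 1 to 4, 0.36, 0.50, 0.44 and 0.53 in LPS arrays, −0.25, −0.30, −0.23 and −0.24 in DHA5HT arrays and −0.09, −0.01, −0.00392 and 0.10 in control arrays. Array 4 was the highest of its group for 7 of the 10 genes in LPS+DHA5HT arrays, for 5 in LPS arrays, for 3 in DHA5HT arrays and for 7 in control arrays. The order of the 4 group means was LPS, LPS+DHA5HT, control, DHA5HT for 8 of the 10 genes and LPS+DHA5HT, LPS, control, DHA5HT for Psmb10 and Psme2.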

How the data were processed

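The deposited values are log2 intensities from an Affymetrix whole-transcript array, made with RMA per the submitters' processing notes (a method that corrects background, equalises arrays and summarises probes). The RMA version, array annotation and any filter are not given in the sources used here. The table holds 35556 probe sets for 16 arrays, from 1.20 to 13.68. Of these, 21218 named 1 gene, 1881 several and 12457 none or were not listed, which left 18820 genes after taking the brightest probe set of each (1386 genes had several). Current symbols came from the RefSeq gene table (18790 matched). Per the labels, 100 ng of RNA with an integrity number above 8 went onto each array. The number of arrays limits the precision.

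Groups followed the titles. Tests used limma 3.58.1 in R 4.3.3 (4 group means over 16 arrays, 12 residual degrees of freedom, two-sided), with Benjamini-Hochberg adjustment over 18820 genes in each of 5 comparisons and a threshold of 0.05. Array numbers are shared by the groups, and in all 24 same-numbered pairs the deviations from the group means correlated (r from 0.14 to 0.46). Other pairs had a median r of −0.17. Some of them lay above the lower same-numbered pairs, such as DHA5HT array 2 with LPS+DHA5HT array 4 (0.30). The numbers were taken to pair the arrays, which rests on these correlations alone. The main fit holds group means only, so its SEs and p values leave this pairing out. The block stayed an alternative and is given where it changed a call. Other alternatives were an intensity trend, brighter genes only, quantile normalization, centring, averaged probe sets, array weights, a threshold of 0.01, the compared arrays alone and single arrays left out.

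The 10 genes and the other lists were chosen with earlier results of these data known. Named genes were the 10 genes, then Psmb5, Psmb6, Psmb7, H2-K1, H2-D1, Irf1 and Ciita where measured (H2-D1 is not analysed here, and 1 further gene of the rule is not reported here), and from each list up to 4 genes past the threshold with the smallest p in LPS against control and up to 3 in LPS+DHA5HT against LPS. Genes outside it are named where a count was small, or because they passed in DHA5HT against control or in the interaction. On simulated data with 200 changed genes among 18820, the fit recovered 84%, 77%, 74%, 78% and 41% of changes of 0.5 and 98%, 99%, 99%, 99% and 95% of changes of 1, for LPS against control, LPS+DHA5HT against DHA5HT, LPS+DHA5HT against LPS, DHA5HT against control and the interaction. False calls were 4.42% to 6.19% of calls. In the measured arrays 5346 genes passed in LPS against control and 5285 in LPS+DHA5HT against DHA5HT, far more than the 200 changed here. The adjustment depends on that number. The simulated arrays were independent, without the correlation of same-numbered arrays, and no change under 0.5 was simulated. These shares therefore need not hold for the measured arrays. Summaries and plots used Python 3.11.15 and matplotlib 3.10.9.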

Additional observations from a re-analysis of the deposited data

Results flagged for a closer look

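Of 172 sets of 4 arrays looked at (43 named genes in 4 groups), 12 had 1 array far from the other 3, where chance gives about 1 in 20. Among the 10 genes these were LPS+DHA5HT array 4 of B2m (12.39, high), LPS+DHA5HT array 4 of Psmb8 (10.47, low), LPS array 3 of Psmb8 (10.65, high), and control array 4 of Tap2 (7.75, high) and of Nlrc5 (8.66, high). Among the other named genes they were LPS+DHA5HT array 4 of Psmb3 (10.65) and array 1 of H2-DMa (5.36), LPS array 2 of Psmc2 (9.99) and of Ifngr1 (7.26), DHA5HT array 4 of Irf1 (7.82), and control array 1 of Ciita (3.59) and array 4 of H2-T24 (7.67).

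The DHA5HT effect differed between LPS-treated and resting cells in the interaction test for 4 genes of the related lists and for none of the 10, where 0.329% of all genes passed. These 4 were picked out of all listed genes because they passed, so setting them against the 10 is not a test. The effect with LPS minus the effect without it was 2.03 for Irf7 (limma adjusted p = 0.000884), 1.93 for H2-T24 (adjusted p = 0.00366), 1.76 for Usp18 (adjusted p = 0.0271) and 0.63 for Irf9 (adjusted p = 0.0434). The Usp18 call was lost in 9 of the 16 fits that left out 1 array (1.58 to 1.76 in those fits, adjusted p up to 0.0684) and the Irf9 call in 12 (0.59 to 0.66 in those fits, adjusted p up to 0.116), after quantile normalization (adjusted p = 0.0512), after centring (adjusted p = 0.0599) and with array weights (adjusted p = 0.0633). For Irf7 and H2-T24 every DHA5HT array lay below every control array, while LPS+DHA5HT and LPS arrays overlapped.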

How the results depend on the processing

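Over all alternatives the differences of the 10 genes kept their call 895 times, lost one 19 times and gained one 6 times, and 0 called differences changed sign. The sign turned for 2 differences that had not passed, Psme2 in LPS+DHA5HT against LPS without LPS array 1 (−0.01) and the Tap2 interaction without DHA5HT array 2 (−0.01). With the array number as a replicate block, Tap1 passed in LPS+DHA5HT against LPS, which made 1 of the 10 genes called, and Tapbp in DHA5HT against control, and the block changed no other call of the 10. Over all genes the block gave 647 calls in LPS+DHA5HT against LPS in place of 337, 179 in DHA5HT against control in place of 113 and 96 in the interaction in place of 62. Testing only genes above the median level gave 557 calls in LPS+DHA5HT against LPS, and the compared arrays alone gave 86. At a threshold of 0.01, 81 genes passed there and 28 in the interaction. In DHA5HT against control 1 of the 10 genes (Tap1) passed in the compared arrays alone and 1 at 0.01, and 1 to 3 passed with single arrays left out. Leaving out single arrays gave 7 to 8 of the 10 genes in LPS against control, 9 to 10 in LPS+DHA5HT against DHA5HT and 0 to 0 in LPS+DHA5HT against LPS, and over all genes 143 to 289 in LPS+DHA5HT against LPS, 83 to 116 in DHA5HT against control and 34 to 62 in the interaction. Without LPS+DHA5HT array 1, whose labels differ, 180 genes passed in LPS+DHA5HT against LPS. The cause of these shifts in counts was not tested. All alternatives were run. With 4 arrays a group, small DHA5HT effects cannot be told from 0.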
